A study of Mus musculus with 6 samples.

Results

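The ADAMTS genes encode secreted metalloproteases that cut proteins of the extracellular matrix. The genes described here were chosen by name. They are Adamts1, Adamts2, Adamts4, Adamts5, Adamts8, Adamts9, Adamts10, Adamts12, Adamts15 and Adamts20, which are 10 of the 55421 genes in the count table. All of them were found in the table, and 7 had enough counts to be tested.

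ADAMTS proteases are made as inactive precursors, are activated by proprotein convertases such as furin, and bind the matrix through thrombospondin type 1 repeats in their C-terminal part. Adamts1, Adamts4, Adamts5, Adamts8, Adamts9, Adamts15 and Adamts20 form the proteoglycan-cleaving group, whose best known substrates are the large hyaluronan-binding proteoglycans aggrecan and versican. Adamts2 removes the N-terminal propeptide of fibrillar procollagens, Adamts10 acts with fibrillin microfibrils, and Adamts12 has been linked to cartilage oligomeric matrix protein. In skeletal muscle, cleavage of versican by members of the proteoglycan-cleaving group is known to clear the matrix around myoblasts as they fuse.

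RNA-seq was carried out on differentiating mouse C2C12 myoblasts, a cell line that forms multinucleate myotubes in low serum. Both groups were stably transfected with pCDNA3-GFP-(CUG)200, which carries the expanded repeat of myotonic dystrophy type 1 (DM1). The control group also carried an empty vector, which the paper does not name further, and the miR-322/-503 group carried pLL4.0-miR-322/-503. Stable lines were selected with G418 and puromycin, depending on the resistances of the plasmids. From each group, 3 libraries were made on differentiation day 4. Each group came from a stable line of its own, so that a difference between lines and an effect of the microRNAs cannot be told apart. The paper states 3 biological and 3 technical replicates for its assays unless otherwise noted, but the labels name no separate cultures. The p-values therefore measure the spread between these libraries, which may be technical.

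Total estimated counts lay between 78219596 and 86470394 per control library and between 73532084 and 92157388 per miR-322/-503 library. A read pair entered the count table as about 4 estimated counts, which puts the libraries at between 18383021 and 23039347 read pairs. All 9 skeletal muscle markers were tested, and their summed level was 3509 to 3792 CPM (counts scaled to library size) in the control and 4354 to 4561 CPM in the miR-322/-503 group. At an adjusted p under 0.05 by edgeR, 5 of them were higher and 1 was lower, which was Myog, at 185 to 215 CPM in the control and 115 to 134 CPM in the miR-322/-503 group (log2 fold change -0.74). The markers of adipocytes and epithelium stayed below a summed 0.47 CPM in every library, and of the cartilage markers Acan, Col9a1 and Matn1 had no counts while Sox9 lay at 55.4 to 61.5 CPM in the control and 65.6 to 78.4 CPM in the miR-322/-503 group. The summed endothelial markers were at 1.03 to 1.30 CPM and 3.75 to 5.07 CPM, nearly all of it Tek, and the summed blood cell markers, with Adgre1 at 0, were at 3.20 to 4.63 CPM and 12.5 to 14.8 CPM in the same order. On the log2 scale, Sox9 changed by 0.30 (edgeR adjusted p = 0.0254) and Tek by 1.90 (edgeR adjusted p = 0.000342). Among the blood cell markers Hba-a1 lay at 1.18 to 1.70 CPM and 8.67 to 11.7 CPM (log2 fold change 2.71, edgeR adjusted p = 6.21e-05), while Cd68 had a log2 fold change of 0.48 (edgeR adjusted p = 0.102) and Ptprc stayed below 0.1 CPM. The part of these marker levels in the results was not tested. In whole cultures, fewer cells of a type and less RNA per cell cannot be told apart.

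The loci of Mir322 and Mir503 held at most 17 and 6 estimated counts in any library, and the levels of the mature microRNAs were not analysed here. The overexpressed microRNAs share most of their seed, the bases 2 to 8 that pair with target messages, and both are shown because a match to the seed is the sequence by which a message could be bound directly. The mature sequences are those of RefSeq in GRCm38.p6, from the minus strand of chromosome X at chrX:53054306-53054327 and chrX:53054027-53054049, and the capitals mark the seed.
mmu-miR-322-5p: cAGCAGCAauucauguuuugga
mmu-miR-503-5p: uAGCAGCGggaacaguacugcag
The site that pairs with the whole seed is TGCTGCT for miR-322-5p and CGCTGCT for miR-503-5p, and both contain GCTGCT. Of 13409 tested genes with an annotated 3′UTR, 24.4% held TGCTGCT on the message strand of their longest 3′UTR, 4.87% held CGCTGCT and 45.2% held GCTGCT.

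Among the 10 members, Adamts4, Adamts5 and Adamts12 held 1 TGCTGCT each, and none held CGCTGCT. The sites are shown with the bases on either side, read 5′ to 3′ on the message strand of GRCm38 with the match in capitals, at chr1:171259942-171259966 on the plus strand, chr16:85862054-85862078 on the minus strand and chr15:11349107-11349131 on the plus strand.
Adamts4: aatggcagcTGCTGCTcctgtggtc
Adamts5: ttaagaactTGCTGCTgttaaataa
Adamts12: tttctgcacTGCTGCTttaccacct
The site of Adamts5 began at base 541 of a 3′UTR of 6437 bases, that of Adamts4 at base 773 of 1459, and that of Adamts12 at base 3439 of 3554. Adamts1, Adamts2 and Adamts15 held only the shorter GCTGCT, and Adamts8, Adamts9, Adamts10 and Adamts20 held none of these letters. The longest 3′UTR of Adamts10 belongs to a transcript of 3 exons, and the 3′UTR of 574 bases in its transcript of 25 exons held no match either. A match is a description of letters, and which of these sites are bound was not measured.

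Levels are given first as TPM, a transcript abundance scaled to transcript length and library size that allows genes to be compared, with the mean ± SD over 3 libraries. In the control, Adamts1 was the most abundant member at 71.2 ± 3.13 TPM (n = 3), followed by Adamts2 at 35.6 ± 1.17 TPM (n = 3). Adamts5 at 26.5 ± 2.52 TPM (n = 3) and Adamts4 at 25.3 ± 1.70 TPM (n = 3) overlapped, so that their order is not settled. Adamts10 stood at 19.96 ± 0.845 TPM (n = 3) and Adamts12 at 4.85 ± 0.283 TPM (n = 3), each apart from its neighbours. Adamts8, Adamts15, Adamts9 and Adamts20 stayed below 0.1 TPM and overlapped each other.

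In the miR-322/-503 group the order was different. Adamts4 led at 46.6 ± 3.88 TPM (n = 3), above Adamts1 at 22.1 ± 1.07 TPM (n = 3) and Adamts2 at 20.4 ± 1.15 TPM (n = 3). Adamts1 and Adamts2 were only just apart, since the lowest library of Adamts1 and the highest of Adamts2 both round to 21.2 TPM. Adamts10 at 9.21 ± 1.45 TPM (n = 3) and Adamts5 at 8.75 ± 0.488 TPM (n = 3) overlapped. Adamts12 followed at 3.24 ± 0.636 TPM (n = 3) and Adamts15 at 0.467 ± 0.0713 TPM (n = 3), and Adamts9, Adamts8 and Adamts20 again overlapped near 0.

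**Figure D1:**
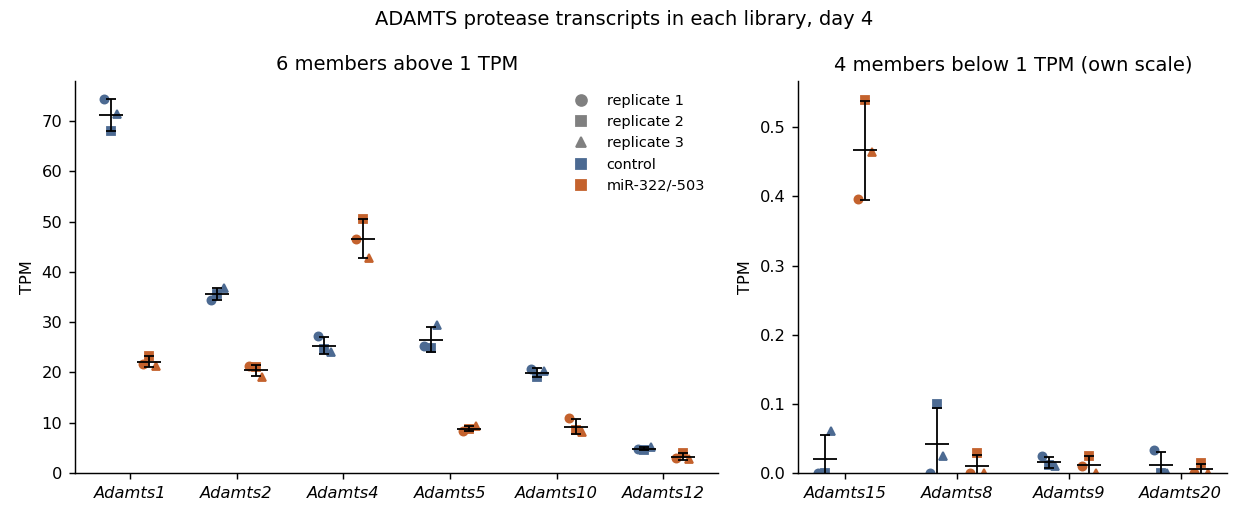
TPM of each of the 10 ADAMTS members (x axis) in each library, with the 6 members above 1 TPM on the left and the 4 below 1 TPM on a scale of their own on the right; points are libraries, black bars the mean ± SD of 3. Adamts4 and Adamts15 sit higher in the miR-322/-503 libraries, and Adamts1, 2, 5, 10 and 12 sit lower, with no overlap between groups for these 7 genes.

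Expression was compared between the groups with edgeR's quasi-likelihood test over 18140 genes, and a gene was called when its Benjamini-Hochberg adjusted p was under 0.05 and its log2 fold change was above 1 or below -1. Of the 7 tested members, 1 was called higher, beside 4.59% of all tested genes, and 3 were called lower, beside 5.29%. The member called higher, Adamts15, passed the filter on low counts only through the miR-322/-503 libraries, so that the counts of members that include it are not read against the shares of all genes. At the adjusted p alone, 2 members were higher, beside 13.2% of tested genes, and 5 were lower, beside 15.5%. In all 7 the control and miR-322/-503 libraries did not overlap, which held for 45.1% of tested genes. The median log2 fold change of the 7 was -0.83, and that of all tested genes was -0.01.

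Adamts1, a protease of versican and aggrecan that is known to respond to inflammatory signals, had the lowest log2 fold change of the 7. The gene lies on chromosome 16 of GRCm38 at chr16:85793827-85803113 on the minus strand, in 9 exons. Its level was 74.3, 68.1 and 71.3 TPM in control replicates 1 to 3 and 21.8, 23.3 and 21.2 TPM in miR-322/-503 replicates 1 to 3. Every miR-322/-503 library was below every control library, and within each group the libraries were close. The log2 fold change was -1.68 with an SE of 0.051 (edgeR adjusted p = 1.56e-06), a level 3.21 times lower. By the counts, this was 13996, 14270 and 15041 estimated counts against 5233, 4210 and 4121.

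Adamts5, the other main aggrecan-degrading protease beside Adamts4, lies on the same strand at chr16:85856173-85901828, with 53.06 kb between the genes. Its level was 25.3, 24.8 and 29.4 TPM in the control libraries, compared with 8.27, 8.74 and 9.24 TPM with miR-322/-503. Control replicate 3 was the highest library, and the groups were well apart. This gave a log2 fold change of -1.58 with an SE of 0.098 (edgeR adjusted p = 2.99e-05). Adamts5 is 1 of the 3 members that carry the TGCTGCT shown above.

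The log2 ratio of TPM of Adamts1 over Adamts5 within a library was 1.43 ± 0.139 (n = 3) in the control, against 1.34 ± 0.1196 (n = 3) under miR-322/-503. The libraries of the groups overlapped, and the difference was -0.10. The two-sided exact permutation p was 0.4, but 3 against 3 cannot go below 0.1, so that this test could not pass 0.05 and does not show whether the ratio was the same. Of the 7 other genes tested within 1 Mb of Adamts1, Adamts5 aside as a member, none was lower at an adjusted p under 0.05 and 3 were higher, with a median log2 fold change of 0.20.

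Adamts4, the aggrecanase most often described as inducible, went the other way. It lies at chr1:171250421-171260637 on the plus strand. Its level was 27.3, 24.7 and 24.0 TPM in the control libraries, compared with 46.5, 50.5 and 42.7 TPM with miR-322/-503, so that every miR-322/-503 library was higher. The log2 fold change was 0.90 with an SE of 0.066 (edgeR adjusted p = 6.83e-05), which passed the adjusted p and not the fold change of the call. Its 3′UTR is also 1 of the 3 that hold the TGCTGCT shown above.

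Adamts15, a versican- and aggrecan-cleaving protease, had the largest fold change and the lowest counts of the 7 tested members. It lies at chr9:30899155-30922452 on the minus strand. The estimated counts were 0, 0 and 16 in the control, against 117, 124 and 114 under miR-322/-503, or 0, 0 and 0.060 TPM against 0.397, 0.539 and 0.464 TPM. All control counts came from replicate 3, and all 3 miR-322/-503 libraries were above it. Summed over libraries and divided by 4, this was 4 read pairs against 89, a ratio of 22.9 after scaling for depth, with an exact 95% confidence interval of 8.63 to 85.8 that covers counting error only. The edgeR log2 fold change was 4.47 with an SE of 1.03 (adjusted p = 0.0157), and without control replicate 3 it became 9.89, a fitted value against libraries at 0 and no measure of size. With DESeq2 the adjusted p was 0.0658, so that the call was lost.

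The tested genes of chromosome 9, where Adamts15 and Adamts8 lie 20.11 kb apart on opposite strands, had a median log2 fold change of -0.27, with 76.3% of 1014 genes below 0. The medians of the other chromosomes that carry a member lay between -0.04 and 0.03. The fitted log2 fold change of Adamts15 was thus 4.74 above the median of its chromosome, a distance as uncertain as that fitted value. No ratio between Adamts15 and Adamts8 could be formed, since both had libraries at 0. Adamts7 and Thsd4, which are named below, also lie on chromosome 9.

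Adamts8, Adamts9 and Adamts20, the remaining members of the proteoglycan-cleaving group, were not tested because of their low counts. Adamts8 had 0, 16 and 5 estimated counts in the control libraries, compared with 0, 5 and 0 with miR-322/-503. Adamts9 had 8, 4 and 4 against 4, 8 and 0, and Adamts20 had 8, 0 and 0 against 0, 5 and 0. A count of 0 in a library allows a level of up to 3 read pairs, which is 0.130 to 0.163 CPM at these depths, and only Adamts8 in control replicate 2 was above the 12 estimated counts that stand for 3 read pairs. No fold is given for these 3 genes, whose counts were too low for the test at this depth.

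Adamts2, the procollagen N-propeptidase, was the second most abundant member in the control. It lies at chr11:50602084-50807573 on the plus strand, in 22 exons. Its level was 34.3, 35.7 and 36.7 TPM in the control, against 21.2, 21.0 and 19.1 TPM under miR-322/-503, with no overlap. The log2 fold change was -0.83 with an SE of 0.052 (edgeR adjusted p = 3.21e-05), past the adjusted p and not past the fold change of the call.

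Adamts10, the protease tied to fibrillin microfibrils, was called lower. It lies at chr17:33524204-33553782 on the plus strand, with 15 annotated transcripts. Its level was 20.6, 19.0 and 20.3 TPM in the control libraries, compared with 10.9, 8.59 and 8.16 TPM with miR-322/-503, where replicate 1 was the highest. The change was -1.16 on the log2 scale with an SE of 0.091 (edgeR adjusted p = 9.07e-05). Fbn1, which encodes fibrillin-1, was also lower, with 241 ± 11.3 TPM (n = 3) in the control and a log2 fold change of -0.94 (edgeR adjusted p = 0.00024), and was named after its values were seen.

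Adamts12 was the least abundant of the 6 members above 1 TPM. It lies at chr15:11064790-11349231 on the plus strand, and its TGCTGCT ends 109 bases before the end of the 3′UTR. Its level was 4.78, 4.60 and 5.15 TPM in the control, against 2.999, 3.97 and 2.77 TPM under miR-322/-503, whose replicate 2 was closest to the control. The change was -0.74 on the log2 scale with an SE of 0.083 (edgeR adjusted p = 0.000558). On log2(TPM + 1) with limma it was -0.47 (adjusted p = 0.0567), which did not pass.

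The summed level of the 10 members was 187, 177 and 187 TPM in the control libraries, compared with 112, 117 and 104 TPM with miR-322/-503, or 183.5 ± 5.75 TPM (n = 3) against 110.8 ± 6.58 TPM (n = 3). For the 7 members of the proteoglycan-cleaving group the sum was 123 ± 4.90 TPM (n = 3) against 77.9 ± 4.81 TPM (n = 3). The composition of this pool also differed. Adamts1 made up 38.8 ± 0.884% (n = 3) of the summed TPM in the control, against 19.9 ± 0.515% (n = 3) under miR-322/-503. Adamts4 made up 13.8 ± 0.880% (n = 3) and 42.0 ± 1.11% (n = 3). Adamts5 went from 14.4 ± 1.14% (n = 3) to 7.93 ± 0.856% (n = 3), while Adamts2 stood at 19.4 ± 0.903% (n = 3) and 18.4 ± 0.463% (n = 3), with overlapping libraries. These shares add up to 100 in each library, so that they are not independent of each other.

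**Figure D2:**
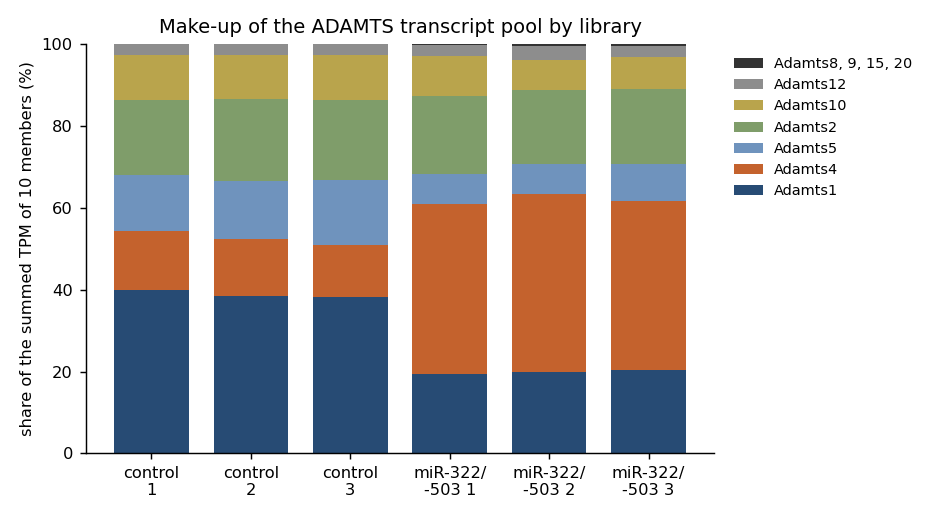
Share of the summed TPM of the 10 members (y axis, %) taken by each gene, for each of the 6 libraries (x axis). Adamts1 took 38.1 to 39.8% in the control libraries and 19.4 to 20.4% in the miR-322/-503 libraries, and Adamts4 took 12.9 to 14.6% and 41.2 to 43.3%.

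Of the 9 other ADAMTS genes, 5 were tested. By edgeR, 2 were called higher, beside 4.59% of all tested genes, and none was called lower, beside 5.29%. At the adjusted p alone, 3 were higher and 1 lower, beside 13.2% and 15.5%. Whether this list or those that follow differ from these shares was not tested. The median over the 5 was 0.45 on the log2 scale. Adamts17, a protease tied to microfibrils, had 83, 123 and 149 estimated counts in the control libraries, compared with 586, 553 and 519 with miR-322/-503, a log2 fold change of 2.24 (SE 0.205, edgeR adjusted p = 0.000199). Adamts14, a procollagen N-propeptidase like Adamts2, stood at 11.7, 12.4 and 11.1 TPM in the control, against 27.3, 23.1 and 21.6 TPM under miR-322/-503, a log2 fold change of 1.04 (SE 0.086, edgeR adjusted p = 0.000121). Without miR-322/-503 replicate 1 its log2 fold change was 0.96, so that the call of Adamts14 rested on that library. Adamts7 passed the adjusted p at a log2 fold change of 0.45 and Adamts16 at -0.56, while Adamts6 had -0.20 (edgeR adjusted p = 0.326). These last 3 genes were named after their values were seen.

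ADAMTS-like genes encode relatives without a protease domain, several of which bind fibrillin microfibrils. Of 7, 6 were tested, of which 1 was called higher and 3 were called lower, beside 4.59% and 5.29% of all tested genes. By the adjusted p alone 2 were higher and 3 lower, beside 13.2% and 15.5%, and the median log2 fold change was -0.64. Adamtsl3 went from 47.6, 45.5 and 48.4 TPM in the control to 7.09, 8.19 and 6.41 TPM, a log2 fold change of -2.74 (SE 0.071, edgeR adjusted p = 9.12e-07). Adamtsl2 had a log2 fold change of -1.95 (edgeR adjusted p = 2.34e-05) and Adamtsl4 of -1.28 (edgeR adjusted p = 9.86e-05), and no library of either overlapped the other group. Thsd4, also known as Adamtsl6, was called higher at a low level, with 41, 55 and 53 estimated counts in the control libraries, compared with 290, 196 and 194 with miR-322/-503 (log2 fold change 2.17, edgeR adjusted p = 0.000208).

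**Figure D3:**
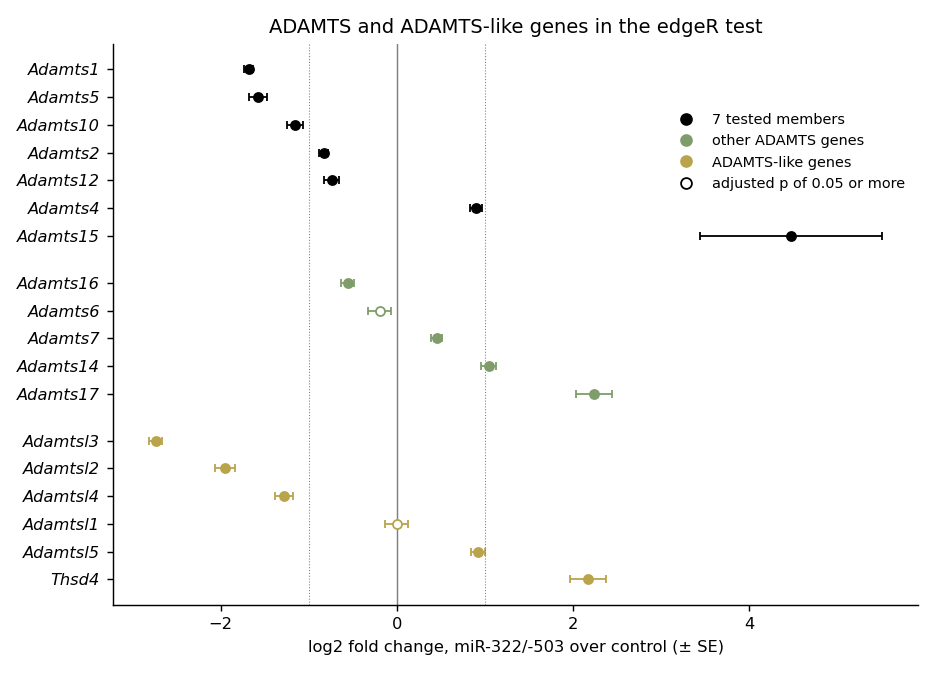
Log2 fold change, miR-322/-503 over control (x axis, ± SE from edgeR), for the 7 tested members and the tested other ADAMTS and ADAMTS-like genes (y axis); open points did not pass an adjusted p of 0.05 and dotted lines mark -1 and 1. The members lie between -1.68 and 4.47, where the wide bar is Adamts15.

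Within a library, members were set against their closest paralogs outside the 10, in 3 pairs chosen after the values were seen. Adamts2 and Adamts14 both cut procollagen propeptides, and the log2 ratio of TPM of Adamts2 over Adamts14 was 1.60 ± 0.107 (n = 3) in the control, against -0.23 ± 0.119 (n = 3) under miR-322/-503, so that the order of the genes turned. For Adamts10 over Adamts6 the log2 ratio was 0.34 ± 0.202 (n = 3) and -0.63 ± 0.125 (n = 3), again with a turned order. For Adamts12 over Adamts7 it was -2.37 ± 0.139 (n = 3) and -3.43 ± 0.324 (n = 3). The libraries of the groups did not overlap in any of these 3 pairs. Each had a two-sided exact permutation p of 0.1, the smallest that 3 against 3 allow, and 0.133 after Benjamini-Hochberg adjustment over 4 pairs with Adamts1 over Adamts5, so that none could pass 0.05.

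**Figure D4:**
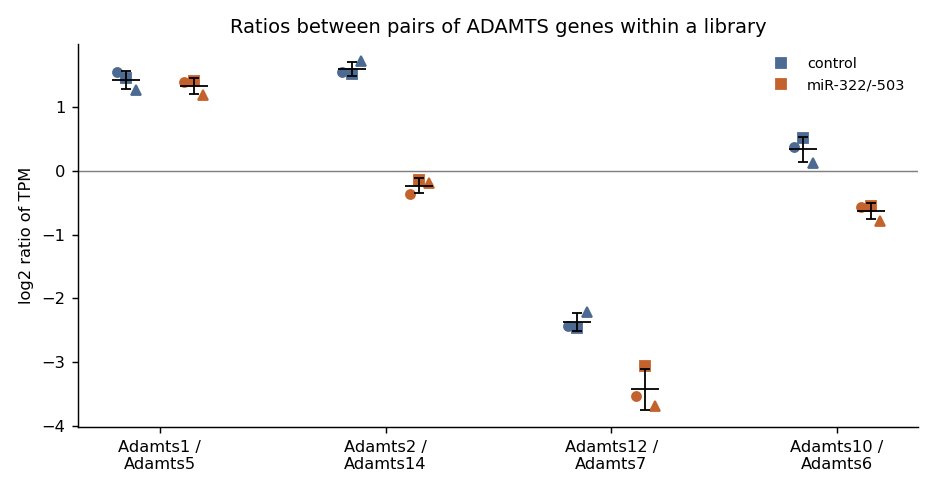
Log2 ratio of TPM (y axis) of 4 pairs of ADAMTS genes (x axis) in each library; points are libraries, black bars the mean ± SD of 3. Adamts1 over Adamts5 overlaps between groups, and the ratios of the other pairs are lower in all 3 miR-322/-503 libraries.

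Of 21 genes for known or proposed substrates, 15 were tested. Of these, 5 were called lower, beside 5.29% of all tested genes, and none higher, beside 4.59%. At the adjusted p alone, 10 were lower and 4 were higher, beside 15.5% and 13.2%, and the median log2 fold change was -0.73. Comp, which encodes cartilage oligomeric matrix protein, had 175, 194 and 161 estimated counts in the control libraries, compared with 0, 0 and 4 with miR-322/-503, or 132 read pairs against 1, a ratio of 128 after scaling for depth, with an exact 95% confidence interval of 22.7 to 5109 for counting error only. Comp passed the filter on low counts only through the control libraries, so that the counts of 5 and 10 that include it are not read against the shares of all genes. Thbs1, which encodes the matrix protein thrombospondin 1, stood at 2389 ± 80.4 TPM (n = 3) in the control and had a log2 fold change of -1.45 (edgeR adjusted p = 1.19e-06). Nid2, a basement membrane nidogen, had a log2 fold change of -1.39 (edgeR adjusted p = 1.52e-05). Bgn, the small proteoglycan biglycan, had one of -1.24 (edgeR adjusted p = 5.49e-06), and the 5th gene called lower was Col1a2, a chain of type I collagen, at -1.19. Close relatives of these genes were higher: Col1a1 had a log2 fold change of 0.53, Nid1 of 0.50 and Thbs2 of 0.73. These relatives passed the adjusted p without being called, and were named after their values were seen.

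Vcan, the gene of versican, was chosen for mention after its values were seen, since it is the main substrate of the proteoglycan-cleaving group in muscle. It stood at 255, 245 and 285 TPM in the control, against 421, 414 and 446 TPM under miR-322/-503, a log2 fold change of 0.79 (SE 0.094, edgeR adjusted p = 0.000747). Every miR-322/-503 library was higher. Acan, the gene of aggrecan and named for the same reason, had no counts in any library.

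Of 8 genes for partners of the proteases, 6 were tested. At the adjusted p, 5 were lower and 1 higher, beside 15.5% and 13.2% of all tested genes, and 2 were called lower, beside 5.29%. The median over the 6 was -0.64 on the log2 scale. Fbln1, whose product fibulin-1 is a known cofactor of Adamts1, went from 18.4, 19.6 and 17.8 TPM in the control to 5.27, 6.03 and 4.89 TPM, a log2 fold change of -1.84 (edgeR adjusted p = 2.03e-05). Fbln2, which encodes fibulin-2, had a log2 fold change of -1.01 (edgeR adjusted p = 2.48e-05), and was just below -1, so that its call was lost without control replicate 1 at -0.97 and without miR-322/-503 replicate 3 at -0.98.

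Of 6 inhibitor genes, 5 were tested and 1 was called lower, beside 5.29% of all tested genes. By the adjusted p, 2 were lower and 1 higher, beside 15.5% and 13.2%, and the median log2 fold change was -0.17. Timp3, whose product is the strongest known tissue inhibitor of Adamts4 and Adamts5, stood at 606, 561 and 678 TPM in the control libraries, compared with 145, 146 and 140 TPM with miR-322/-503. The log2 fold change was -2.08 (SE 0.078, edgeR adjusted p = 3.84e-06), and the groups did not overlap. Timp2 at 0.70 and Reck at -0.70 passed the adjusted p without being called, and were named after their values were seen.

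Of 6 genes for maturation enzymes, 5 were tested and 1 was called lower, beside 5.29% of all tested genes. Passing the adjusted p alone, 2 were lower and none higher, beside 15.5% and 13.2%, and the median log2 fold change was -0.30. Pcsk6, a proprotein convertase, went from 5.65, 5.23 and 5.28 TPM to 1.09, 1.12 and 1.25 TPM, a log2 fold change of -2.76 (SE 0.218, edgeR adjusted p = 9.57e-05). Furin, the convertase best known for activating these proteases, had a log2 fold change of -0.20 (edgeR adjusted p = 0.548) and was named after its values were seen.

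Of 10 ADAM genes, which encode membrane-bound relatives, 9 were tested. The calls were 2 higher, beside 4.59% of all tested genes, and 1 lower, beside 5.29%. With the adjusted p alone, 3 were higher and 1 lower, beside 13.2% and 15.5%, and the median log2 fold change was 0.32. Adam8 went from 5.64, 4.78 and 4.98 TPM to 20.8, 20.3 and 19.4 TPM, a log2 fold change of 2.08 (edgeR adjusted p = 5.70e-06). Adam22, which encodes a protein without a working protease site, had a log2 fold change of 1.27 at a low level (edgeR adjusted p = 0.00495). Adam12, a protease of regenerating muscle, went from 34.4, 32.6 and 33.5 TPM to 8.35, 9.86 and 8.83 TPM, a log2 fold change of -1.88 (edgeR adjusted p = 3.90e-06).

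**Figure D5:**
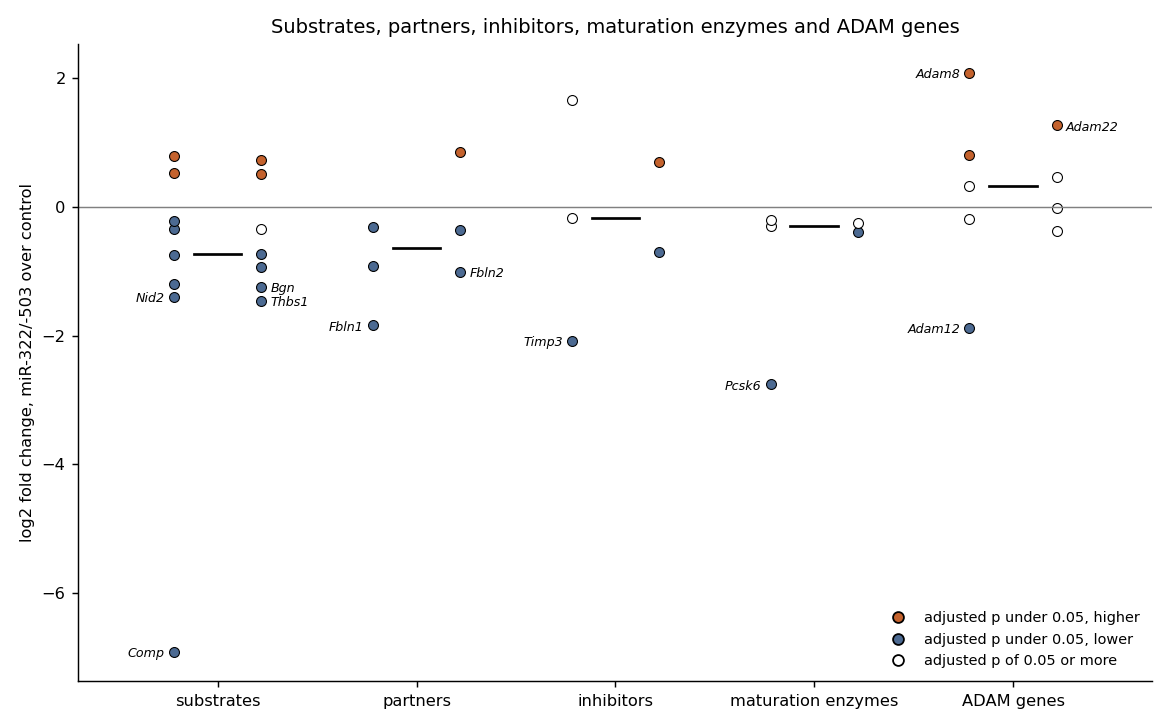
Log2 fold change, miR-322/-503 over control (y axis), of the tested genes of 5 lists (x axis), with the median of each list as a short line and filled points for an adjusted p under 0.05. Comp lies at -6.91, a fitted value from 2 miR-322/-503 libraries at 0, and Timp3 and Pcsk6 lie lowest in their lists.

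The genes whose levels followed those of a member most closely were picked over the 6 libraries, among the 9652 genes that reached 10 CPM on average. For Adamts1, the most abundant member over all libraries, these were Thbs1 with a Pearson r of 0.9998, Col1a2 with 0.9998 and Fbln5, an elastic fibre gene, with 0.9997, and 332 genes had an r above 0.99. For Adamts15, the member with the largest fold change, they were Ergic1 with 0.995, Nmt2 with 0.994 and Acsl4 with 0.9939, and 8 genes had an r above 0.99. The 6 libraries form 2 groups, so that r mostly describes the difference between groups and is given as a description of likeness.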

How the data were processed

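RNA-seq data of 6 libraries, 3 per group, were analysed. Per the paper's methods and the submitters' processing notes, the authors used Trim Galore for read filtering, HISAT2 for alignment to GRCm38 and StringTie for quantification. Versions, gene annotation and strand setting are not given in the sources used here. The authors deposited a table of unnormalized estimated counts and, for each library, tables of TPM, FPKM and coverage per base of each gene. Coverage served to find the number of counts per read pair, and FPKM was not used for any result.

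Estimated counts were used as deposited, and were whole numbers already. Genes were filtered with filterByExpr, scaled by TMM (factors 0.977 to 1.035) and tested with edgeR 4.0.16 (glmQLFit, glmQLFTest, Benjamini-Hochberg over 18140 genes) in R 4.3.3, all 6 libraries and no covariate. Of 55421 genes, 28405 had a count. The SE was derived from the log2 fold change and its F statistic. Ratios within a library were compared by two-sided exact permutation tests, and read pair ratios carry exact binomial intervals, which cover counting error only. Alternatives were DESeq2 1.42.0, other scalings and filters, glmTreat, limma 3.58.1 on log2(TPM + 1) or log2(TPM + 0.1), a replicate block, counts divided by 4, subtraction of the chromosome median and leaving out each library. The fits were tested on simulated counts of known fold change. Replicates differed beyond sampling noise (chi-square per degree of freedom 14.8 to 21.3), so that none was taken for a copy.

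Member coordinates in the deposited tables equalled those of GENCODE M21, from which 3′UTRs were taken. The 10 members and the 7 lists were chosen with earlier results of these data known. Named genes are all members, each called list gene or the 4 with the largest fold change and at least 1 CPM, and the 3 genes most alike to 2 members, and the cell type markers were a list of their own, of which those named singly were picked after their values were seen. Other genes are said to be named after their values were seen. A further comparison is not reported here.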

Additional observations from a re-analysis of the deposited data

How the results depend on the processing

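All 125 alternative log2 fold changes of the 7 tested members kept their direction. Of these, 118 had an adjusted p, which was under 0.05 in 109, and the 7 values after subtraction of the chromosome median had no test. The 3 members called lower stayed at 3 under every alternative except glmTreat, whose null hypothesis is a change of at most 1 on the log2 scale, and which left 2, with Adamts10 at -1.16 (adjusted p = 0.236). Adamts15 is the only member called higher. The number called higher was 0 with DESeq2 (log2 fold change 4.54, adjusted p = 0.0658), with glmTreat (4.47, adjusted p = 0.0762), with at least 10 counts in every library, which removes the gene, and with limma on log2(TPM + 1) with or without the filter, where the pseudocount holds its log2 fold change at 0.52. By their construction, glmTreat also gave no call to Adamts2 (-0.83), Adamts4 (0.90) and Adamts12 (-0.74). Adamts12 did not pass with limma on log2(TPM + 1), at -0.47 (adjusted p = 0.0567, and 0.108 without the filter), or on log2(TPM + 0.1), at -0.58 (adjusted p = 0.0548); the cause was not tested. Over the alternatives of Adamts12, the adjusted p lay between 2.97e-10 and 1.

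When each library was left out in turn, the members called remained 1 higher and 3 lower in number, and Adamts15 ranged from 3.90 to 9.89, the highest without control replicate 3. Among the substrates, partners, inhibitors, maturation enzymes and ADAM genes, glmTreat left 1 called higher in place of 2, without Adam22, and Fbln2 was lost under 7 of the alternatives. Comp lost its call with at least 10 counts in every library, which removes the gene, and Col2a1, not tested by edgeR and named after its values were seen, was called lower with DESeq2. Adamts14 was lost under glmTreat and without miR-322/-503 replicate 1, and Adamtsl4 under glmTreat. The difference of Adamts1 over Adamts5 lay between -0.17 and -0.03 with a library left out, which was added after the data were seen.

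The labels do not say that replicate numbers pair libraries, and the deviations of libraries with the same number correlated at 0.131, 0.0687 and 0.0451. Such values do not settle whether the numbers pair the libraries. With the replicate block, 1 member was called higher and 3 lower, as without it, and Adamts15 had a log2 fold change of 5.04. Depth limits Adamts8, Adamts9, Adamts15 and Adamts20, whose control counts came to a few read pairs.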
